A study of Bos taurus with 6 samples.

Results

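Maturation-promoting factor is the kinase whose activation drives an oocyte out of prophase arrest. The genes of its subunits and of its direct regulators were examined in oocytes of 3 Holstein cows treated or not with a gonadotropin-releasing hormone (GnRH) antagonist. They were taken as every array probe whose symbol in the platform annotation was CDK1, CCNB1, CCNB2, WEE1, PKMYT1, CDC25A, CDC25B or CDC25C. All 8 genes were present, with 10 probes out of 43794 on the array: CDC25B had 3 probes and each other gene had 1. All 10 probes were among the 32527 tested, which carried 12314 gene symbols.

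Each cow received follicle-stimulating hormone (FSH) every 12 h for 3 days and then went without FSH for 68 h, a rest called coasting. In the control collection nothing was added, and in the antagonist collection, at least 1 month apart from it, the cow was given cetrotide during all of coasting. Oocytes were aspirated from the live animal, stripped of cumulus cells mechanically, and their RNA was extracted as a pool and amplified. Both RNAs of a cow were hybridised together on a 2-colour array and once more in the opposite dye orientation, giving 6 arrays and 3 replicates. The sources used here give no age of the cows, no number of oocytes per pool and no order of the collections, and the antagonist cannot be told apart from other differences between the collections.

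The kinase consists of the catalytic subunit CDK1 and a B-type cyclin, CCNB1 or CCNB2. WEE1 in the nucleus and PKMYT1 at internal membranes phosphorylate CDK1 and hold it inactive, and the CDC25 phosphatases remove those phosphates. In mammals the fully grown oocyte waits in prophase of the first meiotic division with this kinase held inactive, makes little new RNA and relies on stored transcripts until the surge of luteinizing hormone releases it. A GnRH antagonist blocks the pituitary receptor that drives secretion of luteinizing hormone. The comparison asks how the stored transcripts differed after coasting under the antagonist.

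All ratios are log2 of antagonist over control as the authors deposited them for each array, and the mean ± SD is over the 3 cows after averaging both arrays of a cow. A reading counted as above background when the raw spot intensity lay over 2 SD above the mean of its channel's negative controls. That limit lay between 170.5 and 247.4 units, and 55.8% to 77.5% of probes were above it per channel. By limma no probe passed at an adjusted p under 0.05 (0 of 32527, or 0%), and the lowest adjusted p was 0.265, while 4225 probes (13%) had an unadjusted p under 0.05. The small number of cows limits the precision: at the median standard error of 0.0609, a ratio of 0.179 was needed for an unadjusted p of 0.05.

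Of the 8 genes, CDK1 had the most negative mean ratio and CDC25B the most positive, and none passed correction. Both CDK1 (-0.63) and PKMYT1 (0.19) had an unadjusted p under 0.05 by limma, 1 in each direction, against 6.17% of all probes tested on the lower side and 6.82% on the higher side. The ratios of the other 6 genes had unadjusted p-values of 0.05 or more. With an ordinary t statistic per probe, in place of limma's moderated one, CDK1 missed that level while CCNB2 and CDC25A joined PKMYT1. The median over the 8 genes was 0.076, beside 0.0055 over all genes tested, with 5 genes above 0 and 3 below, where 47.6% of all genes were below. The member median was -0.015 under median centring of the scanner values without loess, -0.052 on arrays with antagonist in Cy5 alone, -0.0044 on the 4 arrays inferred to share a slide and 0.020 without cow 3. The sign was the same in all 3 cows for 5 of the 8 genes, beside 37% of all probes: negative for CDK1 and positive for CCNB2, PKMYT1, CDC25A and the brightest probe of CDC25B.

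**Figure D1:**
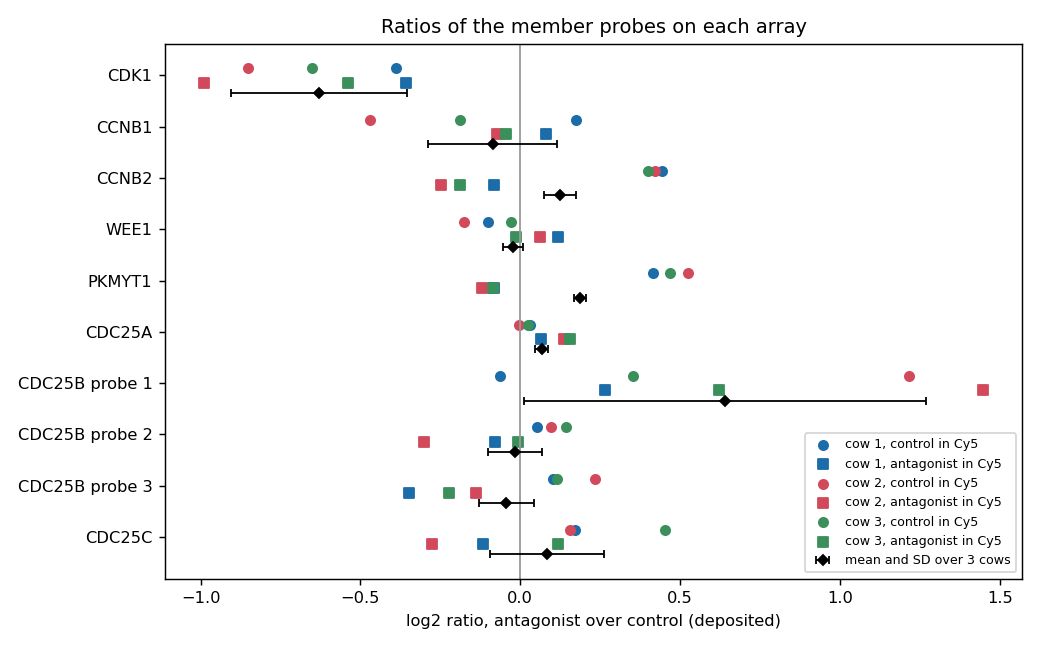
Log2 ratio of antagonist over control (x axis) for the 10 probes on each of the 6 arrays. Colours mark the cow, circles the arrays with control in Cy5, squares those with antagonist in Cy5, and diamonds with bars the mean and SD over 3 cows. All 6 CDK1 values lie below 0, between -0.99 and -0.36, whereas circles and squares of PKMYT1 and CCNB2 lie on opposite sides of 0.

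CDK1 transcript was lower with the antagonist in every cow. The ratios were -0.39 and -0.36 in cow 1, -0.85 and -0.99 in cow 2 and -0.65 and -0.54 in cow 3, in each case with control in Cy5 first. All 6 arrays thus had the same sign, which 5.43% of all probes tested showed in the negative direction and 6.78% in the positive. Cow 1 retained 77.1% of its control level, cow 2 retained 52.8% and cow 3 retained 66.2%. The mean was -0.63 ± 0.27 (n = 3), or 64.6% of control, with a 95% interval by limma from -0.996 to -0.26, an unadjusted p of 0.0101 and an adjusted p of 0.281. Only 250 of the 32527 probes had a lower ratio. In these pooled RNAs, less transcript per oocyte cannot be told apart from a different mix of oocytes.

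Raw CDK1 intensities showed the difference without normalization. In Cy5 the spot read 1507 for control and 1094 for antagonist in cow 1, 1094 and 752.7 in cow 2, and 1274 and 841.1 in cow 3. In Cy3 the readings were 1522 and 1330, 1605 and 709.9, and 1312 and 913.1 in the same order. Antagonist was dimmer in all 6 of these same-dye pairs, although the median probe was brighter in it by 1.03 to 1.38-fold, and 11.5% of probes lay below the median probe in all 6. Every reading was at least 3.04 times the background limit. In normalized single-channel values the control levels of 10.52, 10.31 and 10.24 did not overlap the antagonist levels of 10.13, 9.35 and 9.62, as was the case for 3 of the 10 member probes and 15.7% of all probes.

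The size of the CDK1 ratio differed between cows more than between the dye-exchanged arrays of a cow (limma F-test, adjusted p = 0.000673), as it did for 48.3% of all probes. This test measures RNA pairs against technical error, with 1 pair per cow. Cow 2, with the largest CDK1 ratio, also had the widest spread of ratios over all probes, with an SD of 0.415 against 0.206 in cow 1 and 0.262 in cow 3; the part of this in the CDK1 values was not tested. In a limma fit of the 6 single arrays that treats cows as a random replicate block, CDK1 passed at an adjusted p of 0.0388, and that fit called 1050 probes in all. Without cow 3 the unadjusted p by limma was 0.0539, with a ratio of -0.65.

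The cyclin partners did not share the negative ratio of CDK1 in all cows. CCNB1 had ratios of 0.18 and 0.082 in cow 1, -0.47 and -0.074 in cow 2, and -0.19 and -0.045 in cow 3. Its mean was -0.087 ± 0.20, with a 95% interval by limma from -0.37 to 0.19 and an unadjusted p of 0.421. Cow 1 was above 0 and the other cows below it, and without cow 2 the mean was 0.0059. With median centring of the scanner values without loess the mean was -0.27. In raw readings antagonist was dimmer in 5 of the 6 same-dye pairs. Like CDK1, CCNB1 lay below the median probe in all 6, as did 11.5% of all probes. The CCNB1 spot was among the brightest on the arrays. In Cy5 all 6 readings lay between 33780 and 36170, which was 82.1% to 92.1% of the highest probe in that channel. In Cy3 they ranged from 21720 to 34580, or 61% to 97.3% of the highest probe. Whether readings near those of the highest probe narrowed its ratios was not tested.

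CCNB2 encodes the B-type cyclin found at the Golgi apparatus in somatic cells. With control in Cy5 its ratios were 0.44, 0.42 and 0.40 in cows 1, 2 and 3, and with antagonist in Cy5 they were -0.083, -0.25 and -0.19. The sign followed the dye on every array, and the dye term passed (limma, adjusted p = 1.79e-05), as it did for 66.1% of all probes. Averaged over the dyes, the ratios were 0.18, 0.087 and 0.11, with a mean of 0.12 ± 0.049 and an unadjusted p by limma of 0.0506. The mean was -0.035 when the scanner values were centred on the median without loess.

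Per cow, the CDK1 ratio was below that of CCNB1, whose spot was among the brightest on the arrays. CDK1 minus CCNB1 came to -0.50, -0.65 and -0.48 in cows 1, 2 and 3, with a mean of -0.54 ± 0.092. Against CCNB2 it was -0.56, -1.01 and -0.70. Both differences had the same sign in all 3 cows. They were chosen after the values were seen. The exact two-sided sign-flip p was 0.25 for each, the smallest that 3 cows allow.

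**Figure D2:**
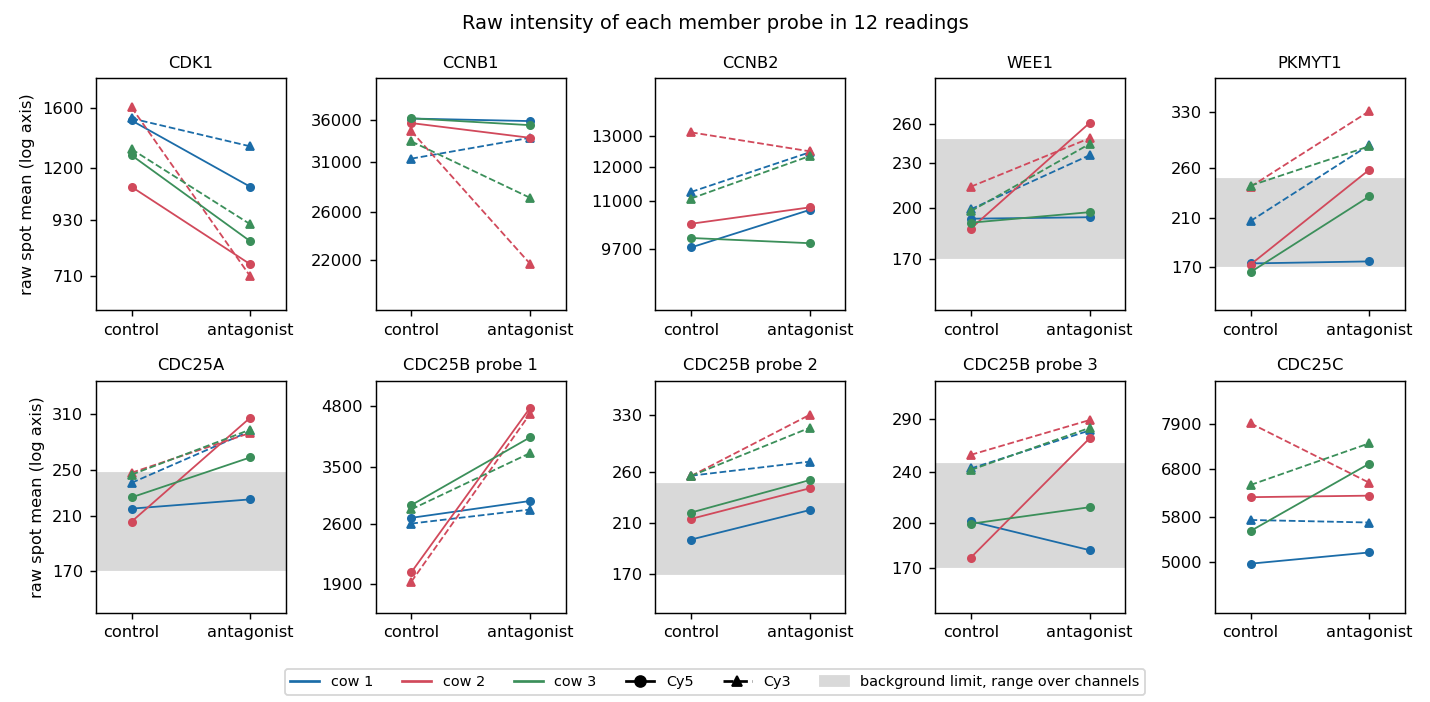
Raw spot mean (log axis, arbitrary units) of each member probe in control and antagonist, where lines join readings of the same cow in the same dye and the grey band spans the background limits of the 12 channels. All 6 lines fall for CDK1 and all 6 rise for the first CDC25B probe. All 6 also rise for WEE1, PKMYT1, CDC25A and the second CDC25B probe, and the median probe was higher too, by 1.03 to 1.38-fold. WEE1, PKMYT1, CDC25A and the other CDC25B probes lie in or near the band.

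Of the inhibitory kinases, WEE1 gave a signal barely above background. Its raw readings ranged from 187.2 to 260.8, and 10 of 12 were above the limit. The ratios were -0.10 and 0.12 in cow 1, -0.17 and 0.062 in cow 2, and -0.030 and -0.014 in cow 3. The mean of -0.023 ± 0.033, with a 95% interval by limma from -0.14 to 0.093, held no difference larger than the spread between arrays. Its sign turned to 0.0060 with median centring.

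PKMYT1, which phosphorylates CDK1 on threonine and tyrosine, was also near background, with raw readings from 166.4 to 331.1 and 9 of 12 above the limit. Its ratios with control in Cy5 were 0.42, 0.52 and 0.47 in cows 1, 2 and 3, and with antagonist in Cy5 they were -0.083, -0.12 and -0.086. The sign followed the dye on all 6 arrays (dye term, limma, adjusted p = 2.39e-05). The averages per cow were close, at 0.17, 0.20 and 0.19, and gave a mean of 0.19 ± 0.018, or 113.8% of control, with an unadjusted p of 0.0107 and an adjusted p of 0.283 by limma. On the shared slide the value was 0.011, and 2 of the 3 cows contribute there an array with antagonist in Cy5 alone.

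Among the activating phosphatases, CDC25A was near background too and had small positive ratios. Raw readings lay between 205.4 and 305.9, all 12 above the limit but by at most 1.39 times. The ratios were 0.031 and 0.065 in cow 1, -0.0053 and 0.14 in cow 2, and 0.024 and 0.15 in cow 3, so that 5 of 6 arrays were above 0. The mean was 0.067 ± 0.020, with a 95% interval by limma from -0.044 to 0.18 and an unadjusted p of 0.160. In raw readings antagonist was above the median probe in all 6 same-dye pairs, as for 8.77% of all probes.

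CDC25B is the member of the family that mouse oocytes need to resume meiosis. Its brightest probe had ratios of -0.063 and 0.26 in cow 1, 1.22 and 1.45 in cow 2, and 0.35 and 0.62 in cow 3. Cow 2 was far above the others: the level with antagonist was 107.2% of control in cow 1, 251.9% in cow 2 and 140.2% in cow 3. The mean was 0.64 ± 0.63, or 1.56-fold, with a 95% interval by limma from -0.17 to 1.45, an unadjusted p of 0.0903 and an adjusted p of 0.450. Positive values in all 3 cows were seen for 20.2% of all probes. The difference between cows passed (F-test, limma, adjusted p = 2.44e-06), and without cow 2 the mean was 0.29.

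In raw Cy5 readings this CDC25B probe went from 2679 in control to 2926 in antagonist in cow 1, from 2015 to 4764 in cow 2 and from 2863 to 4082 in cow 3. In Cy3 it went from 2600 to 2798, from 1918 to 4618 and from 2801 to 3760. Antagonist was brighter in all 6 pairs, though in Cy3 of cow 1 by less than the median probe; 8.77% of all probes were above the median probe in all 6. The control readings of cow 2 were the lowest of the 3 cows and its antagonist readings the highest.

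The 2 other CDC25B probes did not show a positive mean ratio. Their raw antagonist readings were brighter in 6 and 5 of the 6 same-dye pairs, where the median probe was brighter as well. Against the median probe they were higher in 4 and 3 of the 6. One had ratios of -0.014, -0.10 and 0.068 in cows 1, 2 and 3 and a mean of -0.016 ± 0.085, and the other had -0.12, 0.047 and -0.054 and a mean of -0.043 ± 0.085. Both were near background, with 11 and 10 of 12 readings above the limit against 12 for the bright probe. The mean of all 3 probes was 0.19. Which parts of the transcript the probes match is not given in the sources used here.

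CDC25C had ratios of 0.17 and -0.12 in cow 1, 0.15 and -0.28 in cow 2, and 0.45 and 0.12 in cow 3. Only cow 3 was above 0 on both arrays. The mean was 0.084 ± 0.18, with a 95% interval by limma from -0.17 to 0.34 and an unadjusted p of 0.395, and it turned to -0.017 without cow 3 and to -0.060 with median centring. The signal was well above background, with raw readings from 4969 to 7906.

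**Figure D3:**
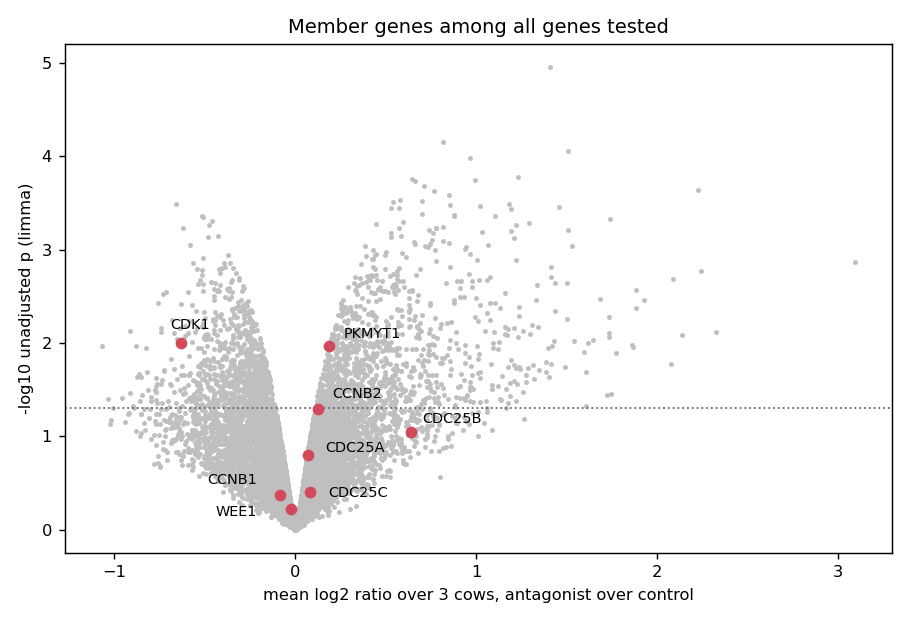
Mean log2 ratio over 3 cows (x axis) against -log10 of limma's unadjusted p (y axis) for the brightest probe of each of 12314 genes, with the 8 members in red and the dotted line at an unadjusted p of 0.05. CDK1 at -0.63 and PKMYT1 at 0.19 lie above the line, and CDC25B at 0.64 lies below it.

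The surrounding pathway was described with 5 lists holding 62 genes, of which 55 were tested, each by its brightest probe. No gene passed over all probes. At an unadjusted p under 0.05 by limma 4 genes were higher and 6 lower, that is 10 of 55 in all, beside 8.67% higher and 6.72% lower among all genes tested. The median ratio of the 55 genes was -0.036, against 0.0055 for all genes.

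Among 17 other cyclins, cyclin-dependent kinases and their inhibitors, 3 were lower and 1 was higher at an unadjusted p under 0.05 by limma, with a median of -0.052. CCNA1, the germline A-type cyclin, had a ratio of -0.27 ± 0.033 and unadjusted p of 0.00374, and its other probe gave -0.15. CCNA2, the other A-type cyclin, had 0.21 ± 0.044 (unadjusted p = 0.0102), and its other probe gave 0.016. By limma the CCNA2 ratio was 0.044 with median centring and 0.063 on the shared slide, with unadjusted p-values of 0.561 and 0.436. CDKN1B, an inhibitor of cyclin-dependent kinases, had -0.28 ± 0.20. CDK2, the closest relative of CDK1 in the cell cycle, had ratios of -0.32, 0.094 and -0.30 in cows 1, 2 and 3, with a mean of -0.18 ± 0.23, and its other probes lay between -0.22 and -0.058.

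CDK7, CCNH and MNAT1 form the kinase that phosphorylates the activation loop of CDK1, and all 3 had negative mean ratios. CDK7, the catalytic subunit, had -0.090, -0.36 and -0.29 in cows 1, 2 and 3, with a mean of -0.25 ± 0.14 (limma, unadjusted p = 0.0315). Its other probe gave -0.39. The CDK7 ratio was -0.47 with control in Cy5 but -0.026 with antagonist in Cy5 and -0.094 on the shared slide, with unadjusted p-values by limma of 0.00505, 0.739 and 0.464. The subunits CCNH and MNAT1 varied more, with -0.30 ± 0.79 and -0.68 ± 0.73, and CCNH was positive in cow 1 at 0.57. Their p-values by limma were 0.05 or more before adjustment, and both are named because the list holds only 3 genes. The median of the list was -0.30, and it stayed below 0 under every alternative, from -0.73 without cow 1 to -0.19 on arrays with antagonist in Cy5 alone. Several of the alternatives change only the test and leave the ratios as they were.

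Of 10 kinases upstream of the CDC25 and WEE proteins, 1 was higher and none lower at an unadjusted p under 0.05, with a median of -0.11 that was 0.0051 without cow 2. That gene was PLK3, a polo-like kinase, at 0.23 ± 0.12, and its other probe gave 0.053. PLK1, the polo-like kinase that activates CDC25C, had 0.33 ± 0.27, while its other probes gave 0.058 and 0.086. WEE2, the WEE kinase of oocytes that holds mouse oocytes in prophase, had ratios of -0.15, 0.26 and -0.061 and a mean of 0.018 ± 0.22. The checkpoint kinase CHEK1 had -0.16 ± 0.40. None of the 7 genes of 14-3-3 proteins, which hold phosphorylated CDC25 in the cytoplasm, had an unadjusted p under 0.05 by limma, and their median was 0.0095, or -0.088 with median centring.

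The list of Greatwall kinase and of the phosphatases that reverse CDK1 phosphorylation had a median of 0.025 over 18 genes (-0.019 without cow 2 and 0.0027 without cow 1), 2 of them higher and 2 lower at an unadjusted p under 0.05 by limma. MASTL, the Greatwall kinase that restrains protein phosphatase 2A while CDK1 is active, had -0.11 ± 0.066. The subunits of that phosphatase with the smallest p-values were all regulatory: PPP2R5D had 1.08 ± 0.35 and PPP2R2B 0.66 ± 0.12, while PPP2R2A, the B55 subunit of most somatic cells, had -0.45 ± 0.11. The other probe of PPP2R2B gave -0.037 and that of PPP2R2A -0.16. The remaining regulatory subunits tested, PPP2R1A (0.036), PPP2R1B (0.0011), PPP2R5A (0.11), PPP2R5B (0.18), PPP2R5C (0.18) and PPP2R5E (-0.076), had unadjusted p-values over 0.05. Unadjusted p-values of PPP2R5D, PPP2R2B and PPP2R2A by limma were 0.00374, 0.000862 and 0.00312, and none passed correction. With cows as a random replicate block the adjusted p-values by limma were 0.0138, 0.0151 and 0.0291 in the same order.

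**Figure D4:**
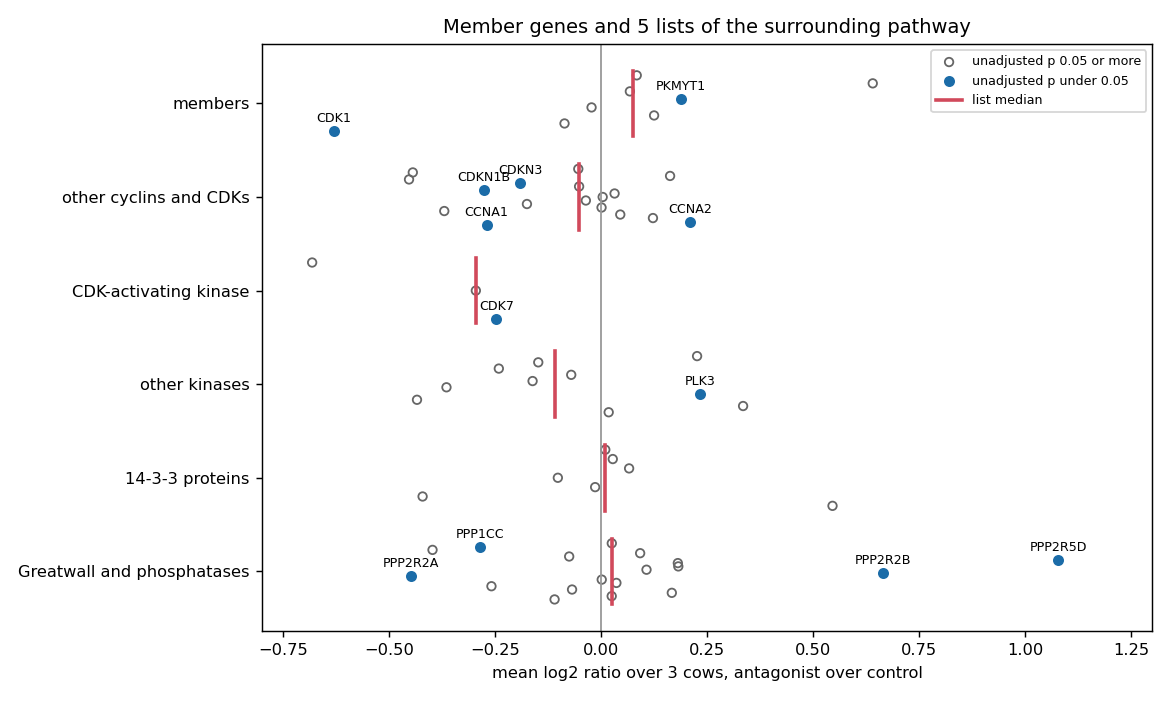
Mean log2 ratio over 3 cows of each tested gene in the member group and in 5 lists of the pathway, where filled points have an unadjusted p under 0.05 by limma and red bars are list medians. All 3 genes of the CDK-activating kinase lie below 0, between -0.68 and -0.25, and the other lists straddle 0; the medians of the members and of the 14-3-3 genes, here above 0, lay below it with median centring.

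Genes most like CDK1 over the 6 arrays were found by the root mean square difference of their ratios, among 8690 other genes above background in all 12 readings. The nearest was C29H11orf73, at 0.096, with ratios of -0.43, -0.83 and -0.52 in cows 1, 2 and 3. It was followed by DBT, a subunit of the branched-chain keto acid dehydrogenase, at 0.099, TMF1, a Golgi protein, at 0.11, L3MBTL3, a chromatin reader, at 0.12, and CHCHD3, a protein of the mitochondrial inner membrane, at 0.13. Within 0.15 of CDK1 lay 11 genes, and the median difference over all genes was 0.70. For CCNB1 the nearest were DGKE, SRRM1 and HEATR5A at 0.075 to 0.090, and for CCNB2 they were TRAPPC1, FBXO9 and EXTL3 at 0.077 to 0.081. The patterns of the cyclins lie nearer to 0, where most genes are, with a root mean square of 0.22 for CCNB1 and 0.33 for CCNB2 against 0.67 for CDK1, and 187 and 62 genes lay within 0.15 of them.

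Markers of the oocyte and of its neighbours were read beside these values. All 14 oocyte markers were above background in all 12 readings, with ratios from -0.35 to 1.10 and a median of 0.17, or -0.0047 with median centring. Of 14 granulosa and cumulus markers 10 were tested and 6 were above background in all readings, with a median of 0.012, or -0.018 with median centring. FOXL2, AMH, HSD3B1 and CYP11A1 of the granulosa list, COL3A1 and DCN of theca and stroma, and CD68 and PECAM1 of blood and endothelium did not exceed the limit often enough to be tested. The granulosa and cumulus markers that were tested had a summed single-channel level of 18540 to 33120 units in the 3 control RNAs. In the 3 antagonist RNAs it was 16640 to 35450. STAR was by far the brightest of these markers, with a mean log2 raw intensity of 14.34, and NR5A2 came next at 11.41. The oocyte markers summed to 121800 to 129200 and 126800 to 140800. Of 9 markers each, 7 of theca and stroma and 7 of blood and endothelium were tested, with medians of 0.050 and 0.011 and summed levels of 2817 to 3313 against 3216 to 5779 and of 1392 to 1739 against 1321 to 1675. In cow 3 the 10 granulosa and cumulus markers ranged from -0.38 for HAS2 to 1.46 for INHBA. INHA was at 1.31 there and the others at 0.18 or below. In that cow the stroma marker VIM was at 1.5. The other theca and stroma markers tested lay there between 0.0080 for INSL3 and 0.17 for FN1. The part of other cells in the ratios of the members was not tested.

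**Figure D5:**
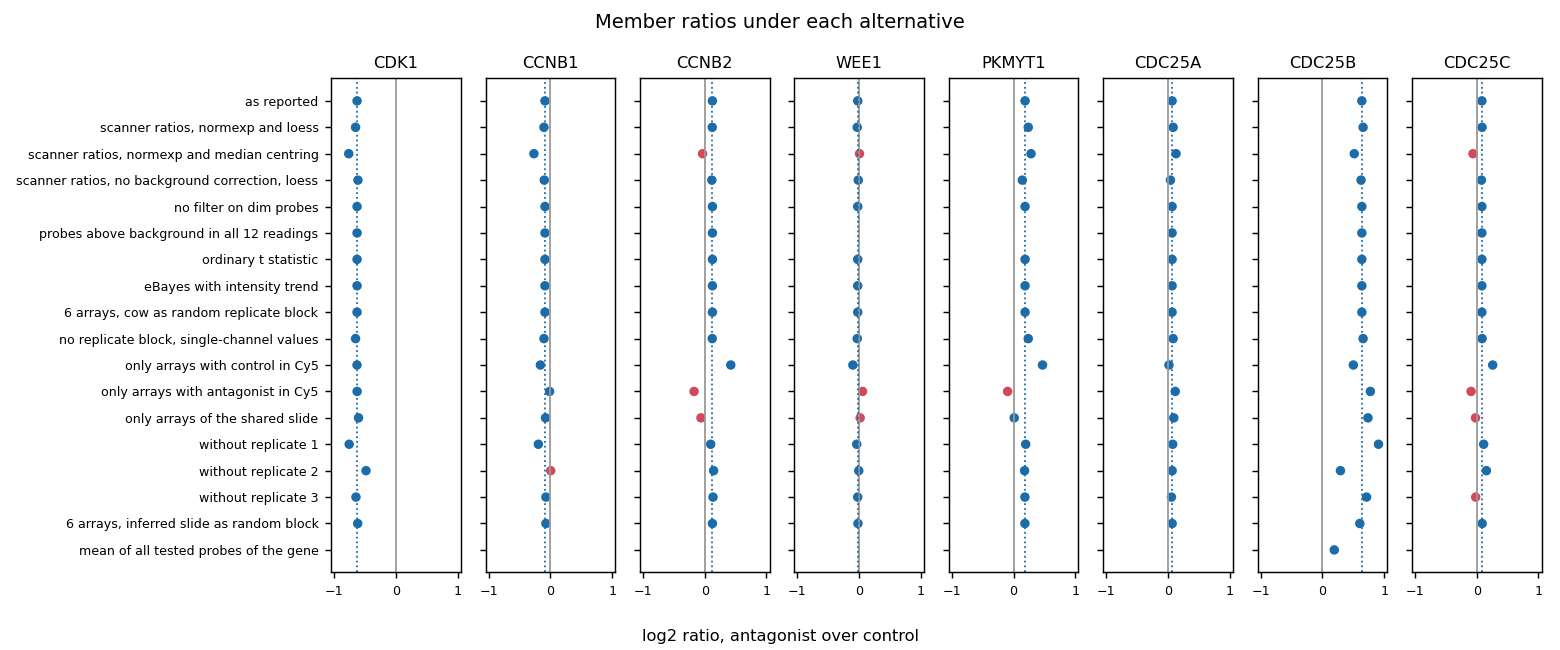
Log2 ratio of antagonist over control (x axes) of each member gene under each way of processing (rows), with dotted lines at the reported value and red points where the sign turned. CDK1 stays between -0.77 and -0.48, CDC25A between 0.016 and 0.13 and CDC25B between 0.19 and 0.91, while CCNB1, CCNB2, WEE1, PKMYT1 and CDC25C have red points. CDC25B is shown by its brightest probe and, as its lowest value, by the mean of all its probes.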

How the data were processed

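Oocyte RNA was linearly amplified and labelled with Cy3 or Cy5, per the labels' protocols. Raw spot intensity at 635 nm (Cy5) and 532 nm (Cy3) with local background was deposited per array, per the file headers. The authors also deposited a table of log2 ratios, whose normalization is not given in the sources used here. Against the scanner values its direction was found to be antagonist over control throughout (r of 0.957 to 0.998 on 6130 bright probes), and against scanner ratios after loess its slopes were 0.976 to 0.986. Its column medians, control in Cy5 first, were 0.00101 and 0.00147 in cow 1, -0.00275 and 0.000808 in cow 2, and 0.00178 and 0.00039 in cow 3.

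The deposited ratios were tested as they stand, since the rule that defines the members names them. For each cow the arrays of both orientations were averaged, and limma 3.58.1 compared the 3 means with 0 (lmFit, eBayes, two-sided, Benjamini-Hochberg) under R 4.3.3. Cow and dye effects came from a fit of 6 arrays with an effect per cow and a dye term. A probe was tested when it was above the negative controls (152 spots) in 3 or more of the 6 readings of a condition, and 102 probes marked as ignored by the image analysis were left out. The pairing is by design: the labels state that each cow was compared with itself, and both its RNAs shared an array. Replicates are separate animals. Symbols came from a platform annotation that can be old; RefSeq's table of the assembly ARS-UCD2.0 held all 8 members and 92.2% of tested symbols, and its coordinates were not used. Single-channel levels and scanner alternatives used normexp (offset 50) and loess, the former with Aquantile. Slides were inferred from scanner file names.

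Named genes were all members, up to 3 genes per pathway list with the smallest unadjusted p under 0.05, WEE2, CCNA2, CDK2, PLK1, CHEK1 and MASTL, and the genes most like CDK1, CCNB1 and CCNB2. Members and lists were chosen with earlier results of these data known. The fits were tested on simulated data that gave all probes the same spread over cows, which the real probes do not share, and no result here rests on that test.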

Additional observations from a re-analysis of the deposited data

Results flagged for a closer look

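The ratio of antagonist over control differed between the cows for 4 of the 10 member probes by limma's F-test, which passed for 48.3% of all probes. The adjusted p was 0.000673 for CDK1, 0.0255 for CCNB1, 2.44e-06 for the bright CDC25B probe and 0.00368 for CDC25C. The CDK1 and CDC25B ratios kept 1 sign over the cows and differed in size, whereas those of CCNB1 (0.13, -0.27 and -0.12) and CDC25C (0.027, -0.061 and 0.28 in cows 1, 2 and 3) differed in sign.

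The ratio differed between the dye orientations for 7 of the 10 probes by limma's dye term, which passed for 66.1% of all probes. The adjusted p was 1.79e-05 for CCNB2, 0.0391 for WEE1, 2.39e-05 for PKMYT1, 0.000362 for CDC25C, and 0.00107, 0.0111 and 0.000168 for the CDC25B probes from bright to dim. The dye term of CDK1 was 0.0011 (adjusted p = 0.977), with mean ratios of -0.63 in both orientations.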

How the results depend on the processing

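CDK1, CDC25A and CDC25B kept their sign under all alternatives run. Changes of the probe filter, the ordinary t statistic, the intensity trend and the replicate block could not turn a sign. They alter the test and leave the ratio as it was. For CDC25B the alternatives used the brightest probe, alone or in the mean of all its probes. Its other probes had mean ratios of -0.016 and -0.043. CDK1 passed at an adjusted p under 0.05 under 2 of 16, with cows as a random replicate block (0.0388) and with the inferred slide as a random block (0.0424), the latter chosen after seeing the data; over all 16 its adjusted p ranged to 0.917. PKMYT1 passed with the slide block at 0.0367, as did CCNA1 and CCNA2. The replicate block counts the arrays of a cow as partly independent. The slide block counts those of cows 1 and 3, which lie on different inferred slides, as fully independent. It counts those of cow 2 as nearly so, at a correlation of 0.0926. Its passes therefore treat technical repeats as replicates. Median centring without loess turned CCNB2 to -0.035, WEE1 to 0.0060 and CDC25C to -0.060. On arrays with antagonist in Cy5 alone, where dye is not cancelled, CCNB2 was -0.17, WEE1 0.056, PKMYT1 -0.096 and CDC25C -0.091, and on the shared slide CCNB2 was -0.061, WEE1 0.016 and CDC25C -0.020. Leaving out each cow gave -0.19 to 0.0059 for CCNB1 and -0.017 to 0.16 for CDC25C. Among other genes named, antagonist in Cy5 alone turned CCNA2 to -0.032, WEE2 to -0.43 and MASTL to 0.013, control in Cy5 alone turned CDK2 to 0.028, the shared slide turned WEE2 to -0.27, and leaving out cow 2 turned CCNH, WEE2 and CHEK1, whose ranges without each cow were -0.73 to 0.038, -0.11 to 0.10 and -0.36 to 0.035.

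Over all probes, 0 passed correction as reported, 1050 with the replicate block, 1473 with the slide block, 8 with no replicate block, on single-channel scanner values (both the pairing and the values change there), and 125 and 134 on arrays with control or antagonist in Cy5 alone. At an unadjusted p under 0.05 by limma the count went from 4225 to 6950 with the slide block, 10633 and 9759 on single orientations, 2792 with an ordinary t statistic per probe, and 1653 to 7221 without each cow (7221 without cow 1, 2619 without cow 2, 1653 without cow 3). Member genes at that level numbered 2 as reported, 1 among probes above background in all 12 readings, where WEE1 and PKMYT1 were not tested, 4 with control in Cy5 alone, 4 with the slide block, and 0 to 3 without each cow, 0 without cow 3. Of the genes named that had that level, the ordinary t statistic lost CDK1, CDKN1B, CDK7, PLK3 and CDKN3, the intensity trend lost CCNA2, CDKN1B, CDK7 and PPP1CC, the single-channel values lost CCNA1, PLK3 and CDKN3, and leaving out cow 3 lost CDK1, PKMYT1, CCNA2, CDKN1B, CDK7, PLK3 and CDKN3. PLK3 was 0.0055 and CDKN1B -0.046 with antagonist in Cy5 alone. The causes were not tested. Counts for cows and dye stayed within 1.5 times. Low signal over background limits WEE1, PKMYT1, CDC25A and the dim CDC25B probes.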

Other observations

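PPP1CC, which encodes a catalytic subunit of protein phosphatase 1, was singled out after its values were seen because its 3 probes agreed in sign. The brightest had a ratio of -0.29 ± 0.054, with -0.24, -0.27 and -0.35 in cows 1, 2 and 3 and an unadjusted p of 0.00426 by limma (adjusted p = 0.277, or 0.0445 with cows as a random replicate block), and the others gave -0.58 and -0.40. CDKN3, a phosphatase that acts on cyclin-dependent kinases, had -0.19 ± 0.12, but its other probe gave -0.0023.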
